A study of Mus musculus with 9 samples.

Results

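The androgen-responsive genes are 35 genes known to respond to androgen, taken from a list of gene symbols and found by symbol in the deposited table of 54532 genes. All 35 were found and all 35 were among the 16836 genes that passed the low-count filter. Poly(A)-selected RNA of mouse prostate was sequenced from Srd5a2-/- (KO), Srd5a2+/- (Het) and wild-type (WT) mice, with 3 libraries per genotype and 9 in all. The mice came from Het males bred with wild-type C57BL6 females, and KO males were obtained in the third generation. Both the Het and the KO mice carry the null allele in every tissue, so the prostate is not the sole place where the enzyme is reduced. The age of the mice, the lobes taken and whether each library is a separate animal are details that the sources used here do not give.

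Srd5a2 encodes a steroid 5-alpha-reductase, which turns testosterone into dihydrotestosterone, the more potent androgen. Androgens act on transcription through androgen response elements in DNA, which are inverted pairs of a short hexamer. In prostate luminal cells they drive the genes of secretion, lipid and sugar metabolism and vesicle traffic, and they also drive genes that feed back on steroid signalling. Several of these genes also respond to glucocorticoids, which act through the same hexamer. The 35 genes are described below in 4 role groups, namely hormone feedback and transcription, luminal surface and secretion, lipid and sugar metabolism, and signalling, traffic and scaffold. The sources give no androgen level for these mice, so whether the genes answered to androgen in them cannot be read from the files, and the comparison is between genotypes.

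The androgen response element was looked for in the promoter windows that RefSeq gives on GRCm38.p6, each reaching from 250 bases before to 50 bases after a transcription start. Of the 35 genes, 26 had 47 such windows. The element searched was the canonical androgen response element, the hexamer AGAACA followed after any 3 bases by its reverse complement TGTTCT, which reads the same on both strands. The hexamer alone was searched on both strands too, and every exact element contains it. An exact full element stood in 1 of the 47 windows, or 2.13%, against 3 of 32851 windows of all genes, or 0.00913%, and the one window belonged to Sgk1. With up to 2 mismatches outside the 3 spacer bases, 4 windows of Sgk1 and Ncoa4 held it (8.51%, against 1.84% of all windows). Counted by gene, that was 2 of 26 genes, against 567 of 27025, and a gene with more windows has more places for a match. The hexamer alone was found in 23.4% of the windows, belonging to 7 of the 26 genes, against 19.0% of all windows, belonging to 5750 of 27025 genes. A match is a run of letters and not a measured binding site, and windows of one gene can overlap. The 250 bases before the start are printed for Sgk1, which held the exact element, for Ncoa4, which held it with 2 mismatches and had the opposite library pattern, and for Fkbp5, which had the lowest p among the 35 genes for Het against WT. Capitals mark the matched element, whose first base lies at position -189 in Sgk1 and -171 in Ncoa4, with -1 the base just before the start. In the Fkbp5 window the closest run had 6 mismatches, so none of its bases are in capitals. The windows lie at chr10:21993640-21993889 on the plus strand for Sgk1, chr14:32165336-32165585 on the plus strand for Ncoa4 and chr17:28486150-28486399 on the minus strand for Fkbp5, and none overlaps an annotated exon. These windows lie inside genes that span chr10:21882184-21999903 for Sgk1, chr14:32159865-32179855 for Ncoa4 and chr17:28399094-28517527 for Fkbp5. Sgk1 and Ncoa4 have several annotated starts. The Fkbp5 window is not at the outer end of its gene, so it does not describe that end.
Sgk1: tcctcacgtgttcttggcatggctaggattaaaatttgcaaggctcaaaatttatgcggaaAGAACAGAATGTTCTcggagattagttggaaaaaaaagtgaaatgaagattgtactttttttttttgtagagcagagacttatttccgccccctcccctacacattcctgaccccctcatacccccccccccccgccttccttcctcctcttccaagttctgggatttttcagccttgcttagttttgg
Ncoa4: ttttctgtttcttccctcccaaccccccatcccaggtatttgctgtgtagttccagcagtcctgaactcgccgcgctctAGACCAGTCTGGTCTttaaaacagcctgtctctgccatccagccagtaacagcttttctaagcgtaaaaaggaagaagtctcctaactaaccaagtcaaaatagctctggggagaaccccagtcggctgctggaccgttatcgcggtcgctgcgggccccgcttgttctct
Fkbp5: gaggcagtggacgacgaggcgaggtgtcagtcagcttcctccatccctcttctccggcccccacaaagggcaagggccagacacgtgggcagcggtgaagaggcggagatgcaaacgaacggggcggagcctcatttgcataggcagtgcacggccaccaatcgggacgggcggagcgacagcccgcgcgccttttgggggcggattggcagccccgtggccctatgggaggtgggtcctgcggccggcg

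The libraries held 16233392 to 24017791 counts each. Srd5a2 itself was low in every library, at 0.934, 0.512 and 1.15 CPM (counts scaled to library size by TMM) in KO, 3.68, 5.19 and 2.37 CPM in Het and 2.30, 5.504 and 8.81 CPM in WT libraries, with KO below both other groups. The difference between KO and WT was not called (log2 fold change -2.67, SE 0.62, edgeR adjusted p = 0.9996; DESeq2 adjusted p = 0.0405). Which part of the gene the null allele lacks is not stated. The prostate marker Pbsn (probasin) was present throughout, at 2508 to 13056 CPM. It was at 10613, 6823 and 4416 CPM in KO, 6299, 2508 and 2697 CPM in Het and 13056, 10907 and 8323 CPM in WT libraries. Every Het library lay below every WT library, which was so for 8.59% of all genes, and the KO libraries overlapped both groups. Sbp, a secreted protein of the ventral lobe, was at 34372 to 143989 CPM in 6 libraries, called Sbp-rich here, namely all 3 KO libraries, Het 1, Het 3 and WT 2. In the other 3 libraries, called Sbp-poor, it was at 7.26 CPM in Het 2, 0.994 CPM in WT 1 and 16.02 CPM in WT 3. No KO library was Sbp-poor.

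Het 1 and Het 2 were the opposite extremes of summed secretory genes. The sum of 8 seminal vesicle genes (Svs1, Svs2, Svs3a, Svs3b, Svs4, Svs5, Svs6 and Pate4) was 98680, 96152 and 193598 CPM in KO, 6593, 359170 and 113319 CPM in Het and 72221, 31140 and 220967 CPM in WT libraries. Het 1 had the lowest of these sums and Het 2 the highest, and all 8 genes had counts in every library but Svs1, which was at 0 in Het 1. All 8 genes were lowest in Het 1, but only Svs2, Svs5 and Pate4, which carry the sum, were highest in Het 2, and the other 5 were highest in KO 3. Svs1 was at 12.3 CPM in Het 2, against 7670.1 CPM in KO 3, and Svs6 at 77.1 and 4498 CPM. The sum of 11 secretory luminal genes, all with counts in every library, ran the other way, at 60786, 53068 and 73694 CPM in KO, 177861, 5989 and 133159 CPM in Het and 31053, 83398 and 15566 CPM in WT libraries. Het 1 was the highest in this sum and Het 2 the lowest. Sbp and Spink1 made up 91.5% of the sum in Het 1 and 0.234% in Het 2, and without them the sum was highest in WT 1, at 31052 CPM, and lowest in Het 2, at 5975 CPM. Singly, 6 of the 11 genes were highest in Het 1 and 5 lowest in Het 2, whereas Pbsn, Tgm4, Dpp4 and Cd24a were highest in WT 1, and Cd24a was lowest in Het 1. In bulk RNA, fewer cells of a type and less RNA per cell cannot be told apart.

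The levels of the 35 genes covered a wide range of expression. On the per-length FPKM scale, which allows genes to be compared with each other, the highest medians over the 9 libraries belonged to the keratin Krt19 at 314 FPKM and the secreted glycoprotein Azgp1 at 204 FPKM. The kinase gene Sgk1 followed at 157 FPKM and sorbitol dehydrogenase, Sord, at 116 FPKM. Their ranges over the libraries overlapped, at 141 to 430 FPKM for Krt19, 54.6 to 443 FPKM for Azgp1, 49.4 to 479 FPKM for Sgk1 and 58.7 to 230 FPKM for Sord, so neighbours in this order did not differ beyond their spread. At the low end stood the ubiquitin ligase gene Herc3 at 1.98 FPKM, the scaffold gene Homer2 at 1.41 FPKM and the lipid phosphatase gene Inpp4b at 0.0651 FPKM. Inpp4b had 16, 30 and 31 counts in KO, 15, 0 and 42 counts in Het and 4, 6 and 19 counts in WT libraries, too few for a useful fold change.

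**Figure D1:**
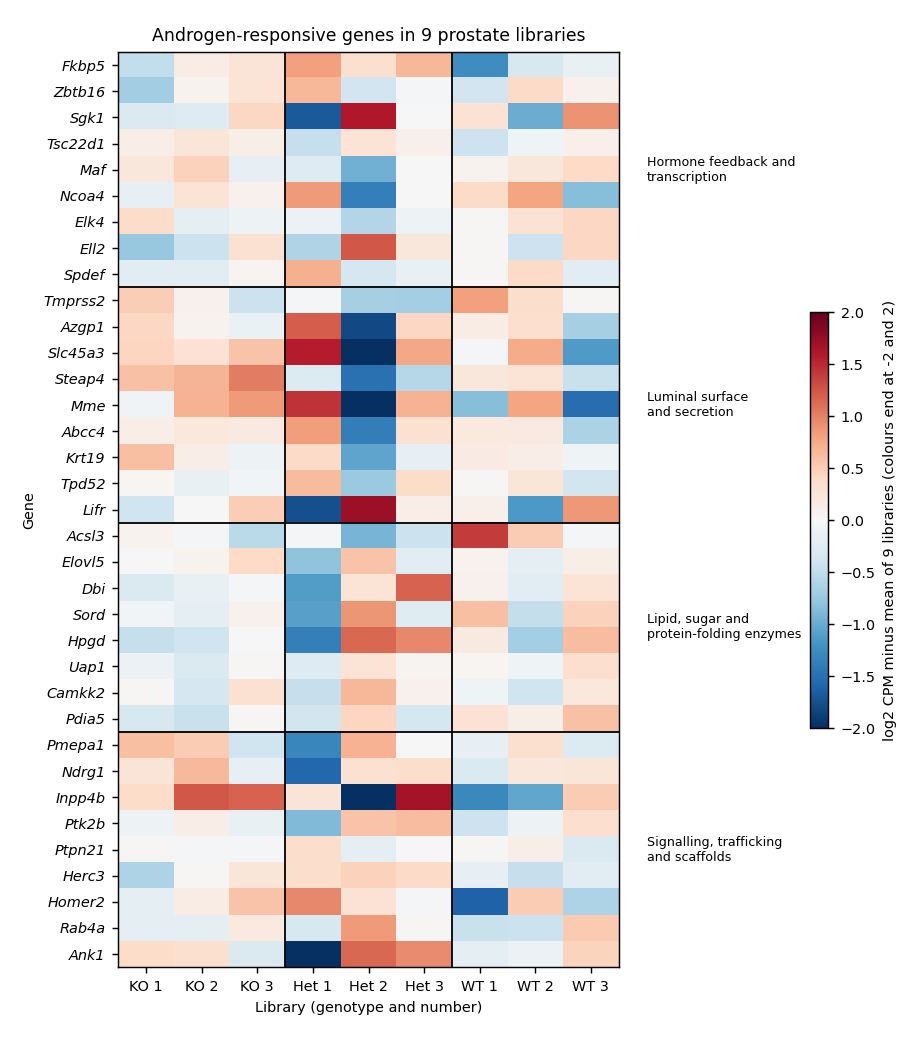
Each row is 1 of the 35 genes, grouped by role, and each column a library in the order KO, Het and WT. The colour is log2 CPM less the gene's mean over the 9 libraries, and Het 1 and Het 2 show opposite colours in many rows.

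Among the genes of hormone feedback and transcription, Fkbp5, a co-chaperone of steroid receptors that is induced by androgens and glucocorticoids, differed most between genotypes. Its level was 135, 211 and 228 CPM in KO, 337, 238 and 302 CPM in Het and 80.2, 152 and 172 CPM in WT libraries. All 3 Het libraries lay above all KO and all WT libraries, and the KO and WT ranges overlapped. Sgk1, a kinase induced by serum and glucocorticoids that regulates ion transport, had 635, 647 and 1031 CPM in KO, 242, 2354 and 779.9 CPM in Het and 941, 389.8 and 1439 CPM in WT libraries. Its lowest and its highest library were both Het, so the Het range enclosed the other two. Zbtb16, a transcriptional repressor also induced by both steroids, lay at 19.2 to 37.6 CPM in KO, 23.9 to 49.5 CPM in Het and 23.8 to 40.6 CPM in WT libraries, and these ranges overlapped throughout.

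Ncoa4, which delivers ferritin for degradation, had 68.2, 93.1 and 81.6 CPM in KO, 139, 29.6 and 76.7 CPM in Het and 101, 133 and 42.4 CPM in WT libraries. Its order over the Het libraries was the reverse of that of Sgk1, with Het 1 highest and Het 2 lowest of all 9. Spdef, an ETS factor of secretory epithelium, shared that order at 70.4, 70.1 and 84.7 CPM in KO, 134, 64.2 and 74.2 CPM in Het and 83.6, 107 and 69.8 CPM in WT libraries. Ell2, a transcription elongation factor, was highest in Het 2 and lay at 81.5, 103 and 171 CPM in KO, 90.9, 328 and 163 CPM in Het and 140.3, 105 and 186 CPM in WT libraries. The KO libraries overlapped the WT libraries for each of these 3 genes.

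The remaining transcription regulators were Tsc22d1, Elk4 and Maf. Tsc22d1, a leucine zipper protein induced by TGF-beta, had 143, 154 and 140.3 CPM in KO, 94.9, 157 and 139.7 CPM in Het and 97.2, 122 and 139 CPM in WT libraries. Every KO library was above every WT library, narrowly so between KO 3 and WT 3. Elk4, an ETS factor, was at 41.7, 28.2 and 30.0 CPM in KO, 29.7, 21.4 and 30.0 CPM in Het and 32.8, 39.2 and 42.7 CPM in WT libraries, and Maf, a basic leucine zipper factor, was at 20.5, 24.1 and 15.6 CPM in KO, 14.7, 8.96 and 17.4 CPM in Het and 18.4, 20.6 and 23.2 CPM in WT libraries. All 3 Het libraries were below all 3 WT libraries for both genes, while KO libraries overlapped WT libraries. Reads of Elk4 may be shared with Mfsd4a, which overlaps it on the opposite strand and has 35% of its counts, since strandedness is not stated.

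At the luminal surface, Tmprss2, a membrane serine protease, had 357, 269.5 and 188 CPM in KO, 249, 159 and 157 CPM in Het and 448.2, 323 and 258 CPM in WT libraries. The 3 Het libraries lay below the 3 WT libraries, and the KO libraries overlapped both. Steap4, a metalloreductase of low level here, had 10.4, 11.1 and 14.1 CPM in KO, 5.73, 2.39 and 4.64 CPM in Het and 8.16, 8.34 and 5.03 CPM in WT libraries. The KO libraries were above all 6 others. Krt19, a simple-epithelium keratin, had 824, 593 and 506 CPM in KO, 705, 262 and 486 CPM in Het and 607, 598 and 511 CPM in WT libraries, with Het 2 lowest and the genotypes overlapping.

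The other surface and secretory genes varied mostly among the Het libraries. Slc45a3, known as prostein, had 176, 161 and 195 CPM in KO, 391, 14.3 and 224 CPM in Het and 128, 219 and 59.6 CPM in WT libraries, a range of 27.3-fold between Het 1 and Het 2. Mme, the membrane peptidase neprilysin, had 213, 362 and 406 CPM in KO, 609, 54.6 and 364 CPM in Het and 125, 388 and 77.9 CPM in WT libraries, an 11.2-fold range with the same extremes. Azgp1, the zinc-binding secreted glycoprotein, had 411, 324 and 282 CPM in KO, 711, 88.0 and 408 CPM in Het and 339, 387 and 194 CPM in WT libraries, again highest in Het 1 and lowest in Het 2. The KO libraries stayed within the WT range or close to its upper edge for all 3 genes.

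Abcc4, an efflux pump, and Tpd52, a vesicle-traffic protein, had the same extremes over smaller ranges, at 31.3 to 32.9 CPM in KO, 10.9 to 51.1 CPM in Het and 18.3 to 32.6 CPM in WT libraries for Abcc4 and 290.2 to 331 CPM in KO, 193 to 499.7 CPM in Het and 249 to 379 CPM in WT libraries for Tpd52. Lifr, the receptor for leukaemia inhibitory factor, ran the other way with 37.0, 49.0 and 68.1 CPM in KO, 14.3, 159 and 53.3 CPM in Het and 51.9, 21.8 and 88.3 CPM in WT libraries, lowest in Het 1 and highest in Het 2. Of the 9 genes of this group, 5 were highest in Het 1 and lowest in Het 2, and Lifr was the reverse.

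In lipid and sugar metabolism, Acsl3, which activates long-chain fatty acids and is a strongly androgen-driven gene in human prostate cells, had 57.6, 53.2 and 37.7 CPM in KO, 53.2, 28.5 and 40.6 CPM in Het and 144, 77.9 and 53.8 CPM in WT libraries. WT 1 stood above the rest, and the 3 Het libraries were below the 3 WT libraries, narrowly so between Het 1 and WT 3. Utp14b overlaps Acsl3 on the same strand, with 13.9% of its counts, and may share its reads. Pdia5, a protein disulfide isomerase of the endoplasmic reticulum, had 20.3, 18.8 and 26.0 CPM in KO, 19.8, 34.3 and 20.0 CPM in Het and 31.3, 27.8 and 38.5 CPM in WT libraries. Every KO library was below every WT library, and Het 2 was among the WT values. Uap1, which makes the sugar donor for glycosylation, varied least of all 35 genes, at 41.8 to 51.9 CPM in KO, 42.6 to 61.5 CPM in Het and 47.8 to 64.3 CPM in WT libraries.

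Sord, which oxidises sorbitol to fructose, had 282, 259 and 312 CPM in KO, 138, 542 and 249 CPM in Het and 446, 209.9 and 403 CPM in WT libraries. Hpgd, which inactivates prostaglandins, had 119, 123 and 162 CPM in KO, 62.9, 359.9 and 318 CPM in Het and 185, 102 and 251 CPM in WT libraries. Both were lowest in Het 1 and highest in Het 2, with every other library between. The fatty acid elongase Elovl5 (61.5 to 81.7 CPM in KO, 35.1 to 91.2 CPM in Het and 53.7 to 66.6 CPM in WT libraries) and the kinase Camkk2, which activates AMPK (17.9 to 27.9 CPM in KO, 16.4 to 35.9 CPM in Het and 17.1 to 26.2 CPM in WT libraries), had the same extremes over smaller ranges. Dbi, the acyl-CoA-binding protein, was also lowest in Het 1 but highest in Het 3, at 70.2, 76.9 and 84.4 CPM in KO, 39.3, 103 and 193 CPM in Het and 90.6, 73.7 and 104 CPM in WT libraries. Thus 4 of the 8 metabolic genes were highest in Het 2 and lowest in Het 1, and none had the reverse order.

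In signalling, traffic and scaffold, Herc3, a HECT-domain ubiquitin ligase, had 11.6, 18.3 and 21.2 CPM in KO, 22.9, 24.6 and 23.3 CPM in Het and 15.95, 12.96 and 15.4 CPM in WT libraries. The Het values lay close together and above all KO and all WT values. Nap1l5, which overlaps Herc3 on the opposite strand with 19.8% of its counts and may share reads, was at 0.162, 3.72 and 10.9 CPM in those Het libraries. Ank1, the erythroid and muscle ankyrin, had 71.9, 69.4 and 45.7 CPM in KO, 8.97, 124 and 107 CPM in Het and 48.6, 51.0 and 75.6 CPM in WT libraries, a 13.8-fold range between Het 2 and Het 1. Homer2, a synaptic-type scaffold protein, had 14.2, 18.0 and 24.3 CPM in KO, 31.8, 19.9 and 15.9 CPM in Het and 5.28, 23.3 and 10.6 CPM in WT libraries, and its genotypes overlapped.

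The rest of this group overlapped between all genotypes. Pmepa1, an inhibitor of TGF-beta signalling, lay at 13.1 to 26.4 CPM in KO, 6.97 to 28.2 CPM in Het and 14.3 to 21.6 CPM in WT libraries, and Ndrg1, a stress-responsive protein, at 17.8 to 31.6 CPM in KO, 6.70 to 25.7 CPM in Het and 16.4 to 23.8 CPM in WT libraries. Ptk2b, the focal adhesion-type kinase PYK2, lay at 29.3 to 35.7 CPM in KO, 17.7 to 50 CPM in Het and 24.4 to 41.1 CPM in WT libraries, and Rab4a, a GTPase of endosome recycling, at 50.2 to 65.9 CPM in KO, 45.8 to 103 CPM in Het and 42.4 to 82.6 CPM in WT libraries. Ptpn21, a cytosolic tyrosine phosphatase, was among the steadiest, at 41.1 to 42.6 CPM in KO, 36.6 to 53.0 CPM in Het and 34.3 to 45.1 CPM in WT libraries.

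For loss of both alleles, KO against WT, the 35 genes lay on both sides of no difference, with 17 higher and 18 lower in KO and a median log2 fold change of -0.01, against 0.0056 over all 16836 genes. With edgeR's quasi-likelihood test and Benjamini-Hochberg adjustment, none of the 35 was called, nor was any gene (0% of 16836; lowest adjusted p = 0.9996). Without adjustment, at p under 0.05, the 35 included none higher and 2 lower, Acsl3 and Pdia5, against 2.2% of all genes higher and 1.37% lower. Acsl3 averaged 49.5 ± 10.4 CPM in KO and 91.9 ± 46.7 CPM in WT libraries (SD, n = 3 each; log2 fold change -0.89, SE 0.36, edgeR adjusted p = 0.9996). Without WT 1 its log2 fold change was -0.41, and adjusted for a skeletal muscle or a seminal vesicle score it was -0.14 and -0.25. Pdia5 averaged 21.7 ± 3.83 CPM in KO and 32.5 ± 5.47 CPM in WT libraries (log2 fold change -0.58, SE 0.26, edgeR adjusted p = 0.9996). The next lower genes were Uap1 (log2 fold change -0.22, SE 0.18, edgeR adjusted p = 0.9996) and Tmprss2 (log2 fold change -0.34, SE 0.29, edgeR adjusted p = 0.9996). The higher genes with the smallest p were Steap4 (log2 fold change 0.73, SE 0.38, edgeR adjusted p = 0.9996), Fkbp5 (log2 fold change 0.50, SE 0.29, edgeR adjusted p = 0.9996), Tsc22d1 (log2 fold change 0.29, SE 0.20, edgeR adjusted p = 0.9996) and Inpp4b (log2 fold change 1.52, SE 1.36, edgeR adjusted p = 0.9996). DESeq2 called 14 genes (0.0833% of those with an adjusted p) and none of the 35.

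The CPM ranges of KO and WT did not overlap for Tsc22d1 and Steap4, both higher in KO, and for Pdia5, lower in KO. This happened for 8.14% of all genes in the higher and 6.04% in the lower direction, so 2 and 1 of 35 are no more than the background. For 15 of the 35 genes the 95% interval lay within a 2-fold change either way, a share no larger than the 45.7% of all genes, and these included Tmprss2 (-0.99 to 0.31 on the log2 scale), Krt19 (-0.55 to 0.88), Tpd52 (-0.72 to 0.64), Uap1 (-0.63 to 0.18) and Ptpn21 (-0.35 to 0.43). The other 20 intervals reached past a 2-fold change in at least one direction. In a fit that adjusts for Sbp the log2 fold changes were -0.26 for Pdia5, 0.33 for Steap4, 0.23 for Fkbp5 and -0.73 for Inpp4b. Without the 3 Sbp-poor libraries, which leaves 1 WT library, Pdia5 was at -0.35. Adjusted for a skeletal muscle score, Fkbp5 was at -0.0086 and Tmprss2 at 0.16, and adjusted for a seminal vesicle score Tmprss2 was at 0.057.

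**Figure D2:**
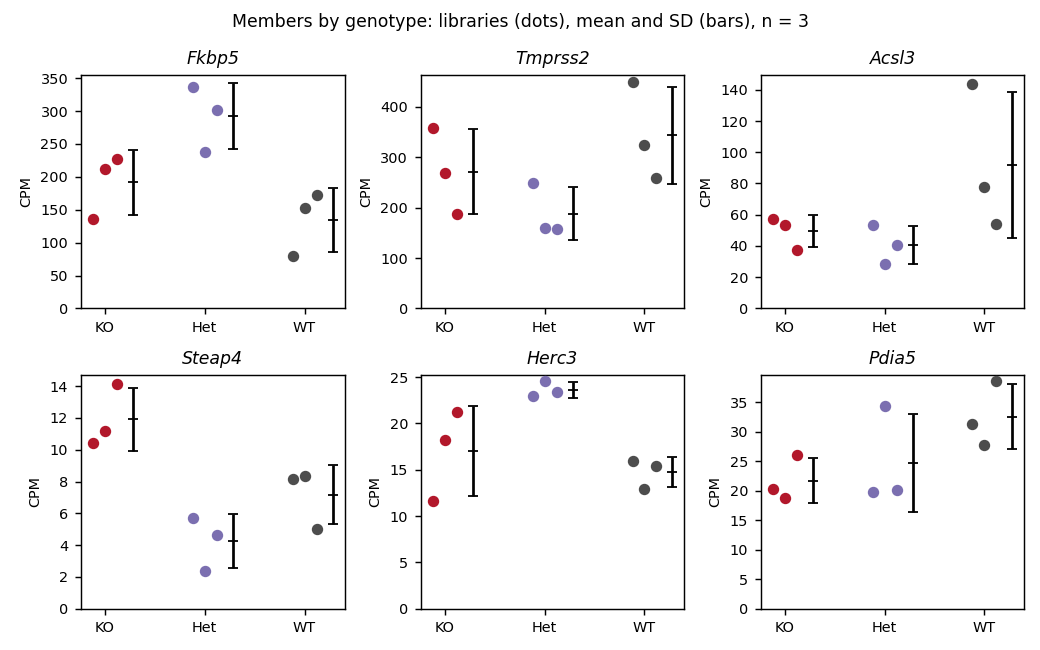
CPM of Fkbp5, Tmprss2, Acsl3, Steap4, Herc3 and Pdia5 in KO, Het and WT libraries, with each point a library and the bar the mean with its SD (n = 3). Het libraries lie above WT libraries for Fkbp5 and Herc3 and below them for Tmprss2 and Acsl3, and KO libraries lie above all others for Steap4.

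For loss of 1 allele, Het against WT, Fkbp5 and Herc3 were higher and Acsl3, Tmprss2, Elk4 and Maf lower in every Het library than in any WT library. Fkbp5 averaged 292 ± 50.3 CPM in Het and 135 ± 48.5 CPM in WT libraries (SD, n = 3 each; log2 fold change 1.11, SE 0.30, edgeR adjusted p = 0.405). Herc3 averaged 23.6 ± 0.869 CPM in Het and 14.8 ± 1.60 CPM in WT libraries (log2 fold change 0.68, SE 0.24, edgeR adjusted p = 0.464). Acsl3 averaged 40.8 ± 12.3 CPM in Het and 91.9 ± 46.7 CPM in WT libraries (log2 fold change -1.17, SE 0.37, edgeR adjusted p = 0.431), and without WT 1 its log2 fold change was -0.69. For Tmprss2 the averages were 188 ± 52.6 CPM in Het and 343 ± 96.7 CPM in WT libraries (log2 fold change -0.87, SE 0.29, edgeR adjusted p = 0.445). Elk4 (log2 fold change -0.50, SE 0.21, edgeR adjusted p = 0.529) and Maf (log2 fold change -0.60, SE 0.28, edgeR adjusted p = 0.563) followed among the lower genes, and Homer2 (log2 fold change 0.79, SE 0.49, edgeR adjusted p = 0.663) and Ell2 (log2 fold change 0.43, SE 0.47, edgeR adjusted p = 0.829) among the higher ones.

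With edgeR over all 9 libraries and no covariate, none of the 35 genes was called in this contrast, nor was any gene (0% of 16836, lowest adjusted p = 0.380). Ranges did not overlap for 2 of the 35 in the higher direction, against 4.7% of all genes, and for 4 in the lower direction, against 8.59%, shares of 5.71% and 11.4% that are near the background. At an unadjusted p under 0.05 there were 2 of 35 higher, against 3.43% of all genes, and 3 of 35 lower, against 5.61%. The median log2 fold change of the 35 was 0.21, against -0.0003 over all genes, with 23 positive and 12 negative. That median was -0.041 without Het 2 and -0.0053 in a fit that adjusts for Sbp. DESeq2 called 205 genes (1.22%), Fkbp5 among them (adjusted p = 0.0391), and its log2 fold change lay between 0.85 and 1.34 under every alternative tried. Without Het 1, edgeR called 258 genes but none of the 35. The sum of 7 endothelial genes, all with counts in every library, was 95.01, 130.3 and 57.4 CPM in KO, 23.0, 39.4 and 31.6 CPM in Het and 61.6, 79.4 and 95.7 CPM in WT libraries, lowest in the 3 Het libraries, and its part in the differences of the Het libraries was not tested. Limma voom with quality weights called 793 of the 16836 genes, with Fkbp5 (adjusted p = 0.0412) and Tmprss2 (adjusted p = 0.0423) among them. EdgeR adjusted for the seminal vesicle score called 274 of the 16836, including Tmprss2 (adjusted p = 0.0302) and Acsl3 (adjusted p = 0.00767).

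Between KO and Het, the second allele, Steap4 was higher in every KO library, and Fkbp5 and Herc3 were lower. Steap4 averaged 11.9 ± 1.96 CPM in KO and 4.25 ± 1.70 CPM in Het libraries (SD, n = 3 each; log2 fold change 1.49, SE 0.38, edgeR adjusted p = 0.64). Fkbp5 averaged 192 ± 49.2 CPM in KO and 292 ± 50.3 CPM in Het libraries (log2 fold change -0.61, SE 0.29, edgeR adjusted p = 0.845). Herc3 averaged 17.0 ± 4.89 CPM in KO and 23.6 ± 0.869 CPM in Het libraries (log2 fold change -0.47, SE 0.24, edgeR adjusted p = 0.866). Ell2 (log2 fold change -0.71, SE 0.47, edgeR adjusted p = 0.944) and Hpgd (log2 fold change -0.87, SE 0.59, edgeR adjusted p = 0.954) were the next lower genes. On the higher side Maf (log2 fold change 0.55, SE 0.28, edgeR adjusted p = 0.866), Tmprss2 (log2 fold change 0.53, SE 0.29, edgeR adjusted p = 0.894) and Elk4 (log2 fold change 0.30, SE 0.21, edgeR adjusted p = 0.964) followed Steap4. The 3 contrasts share libraries and are not independent of each other.

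EdgeR called none of the 35 here and no other gene (0% of 16836; lowest adjusted p = 0.311). The non-overlapping ranges, 1 of 35 higher and 2 of 35 lower, compare with 7.8% and 4.12% of all genes. At an unadjusted p under 0.05, Steap4 was the only one of the 35, against 4.42% of all genes higher and 1.81% lower. Without Het 1 edgeR called 18 genes, none of them among the 35. The median log2 fold change was -0.16, against 0.02 over all genes, with 11 positive and 24 negative. DESeq2 called 169 genes (1.01%), Steap4 among them (adjusted p = 0.0363). Limma voom with quality weights called 319 of the 16836 genes, Steap4 again among them (adjusted p = 0.0472). The log2 fold change of Steap4 lay between 1.18 and 2.45 under the alternatives tried.

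**Figure D3:**
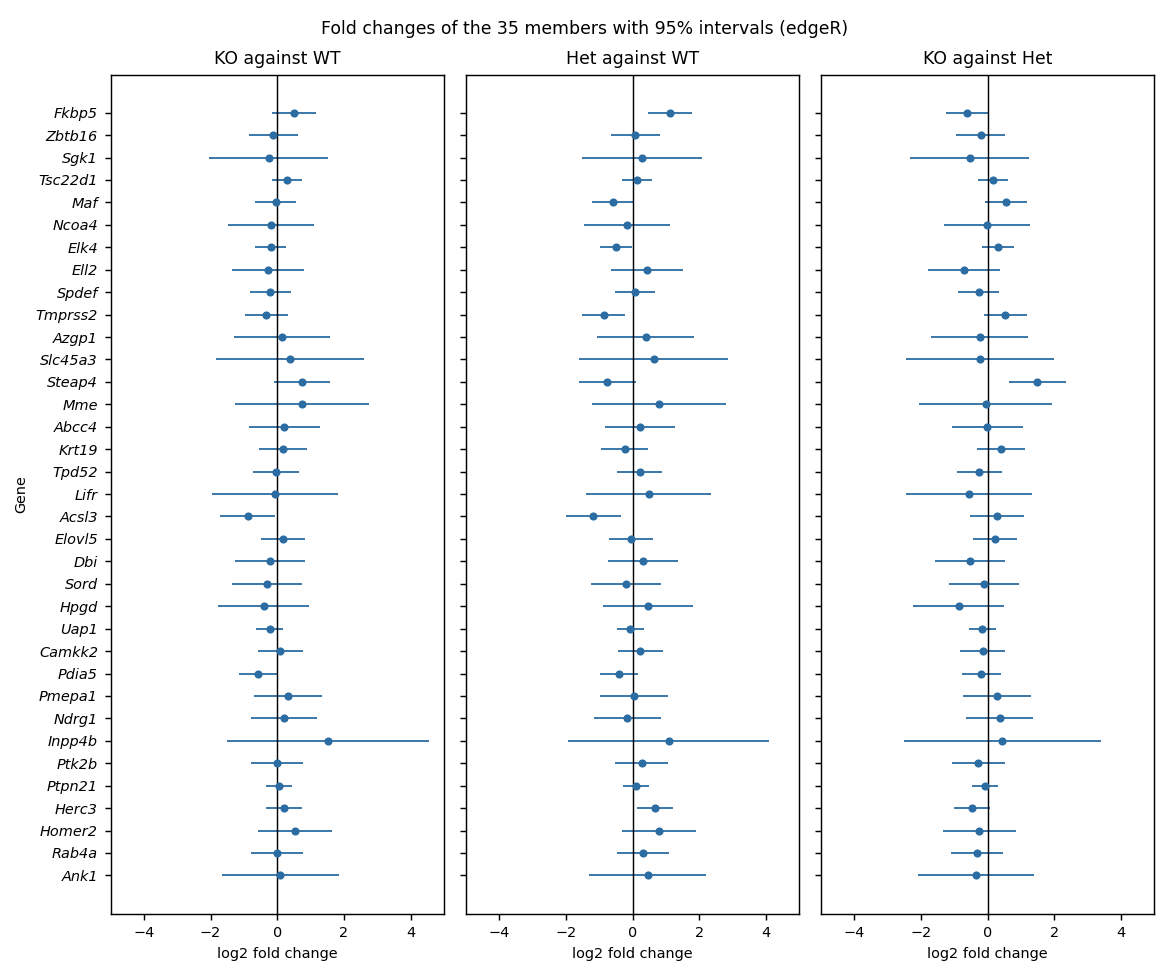
Log2 fold change of each of the 35 genes with its 95% interval from edgeR, in the 3 contrasts. Inpp4b, Slc45a3, Mme and Lifr have the widest intervals, and those of Uap1 and Ptpn21 are among the narrowest.

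Genotype accounted for a small part of how the 35 genes varied. The median share of a gene's log2 CPM variance lying between genotypes was 9.39% for the 35, against 24.6% for all genes tested. With these group sizes, chance alone gives a mean share of 25%. The 2 values above are medians, so they cannot be read against that mean. How often chance alone gives a share above 50% was not tested. The share was above 50% for 6 genes, Steap4 at 73.9%, Fkbp5 at 64.0%, Herc3 at 62.1%, Acsl3 at 53.9%, Tmprss2 at 52.1% and Maf at 50.2%. How many of all genes pass 50% was not counted, so these 6 are listed as a description only. It was lowest for Lifr at 0.219% and Sgk1 at 0.245%, which ranged 11.1-fold and 9.75-fold over the libraries. The median range over the 9 libraries was 2.0 on the log2 scale for the 35 genes, against 1.46 for all genes tested.

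Het 1 and Het 2 were often the extremes of that range. The highest of the 9 libraries was Het 1 or Het 2 for 23 of the 35 genes, or 65.7%, against 34.8% of all genes. For 9 genes Het 2 was highest and Het 1 lowest, namely Sgk1, Tsc22d1, Lifr, Elovl5, Sord, Hpgd, Camkk2, Pmepa1 and Ank1, or 25.7%, against 7.72% of all genes. For 7 genes Het 1 was highest and Het 2 lowest, namely Ncoa4, Spdef, Azgp1, Slc45a3, Mme, Abcc4 and Tpd52, or 20%, against 5.82%. Because the sets are defined by Het 1 and Het 2, their agreement with any other measure in these 2 libraries is fixed by that choice. The summed seminal vesicle genes were at 6593 CPM in Het 1 and 359170 CPM in Het 2, the highest value resting on Svs2, Svs5 and Pate4. The summed secretory luminal genes were at 177861 CPM in Het 1 and 5989 CPM in Het 2, a difference made mostly by Sbp and Spink1. The part of these genes' cell types in the result was not tested. The metabolic genes in these sets were all of the first kind (4 of 4) and the surface and secretory genes mostly of the second (5 of 6). Sgk1 and Tsc22d1 of the hormone feedback group were of the first kind, and Ncoa4 and Spdef of the second. Pmepa1 and Ank1 of the signalling group were of the first kind. The roles were chosen with earlier results of these data known, so this split by role is a description only.

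**Figure D4:**
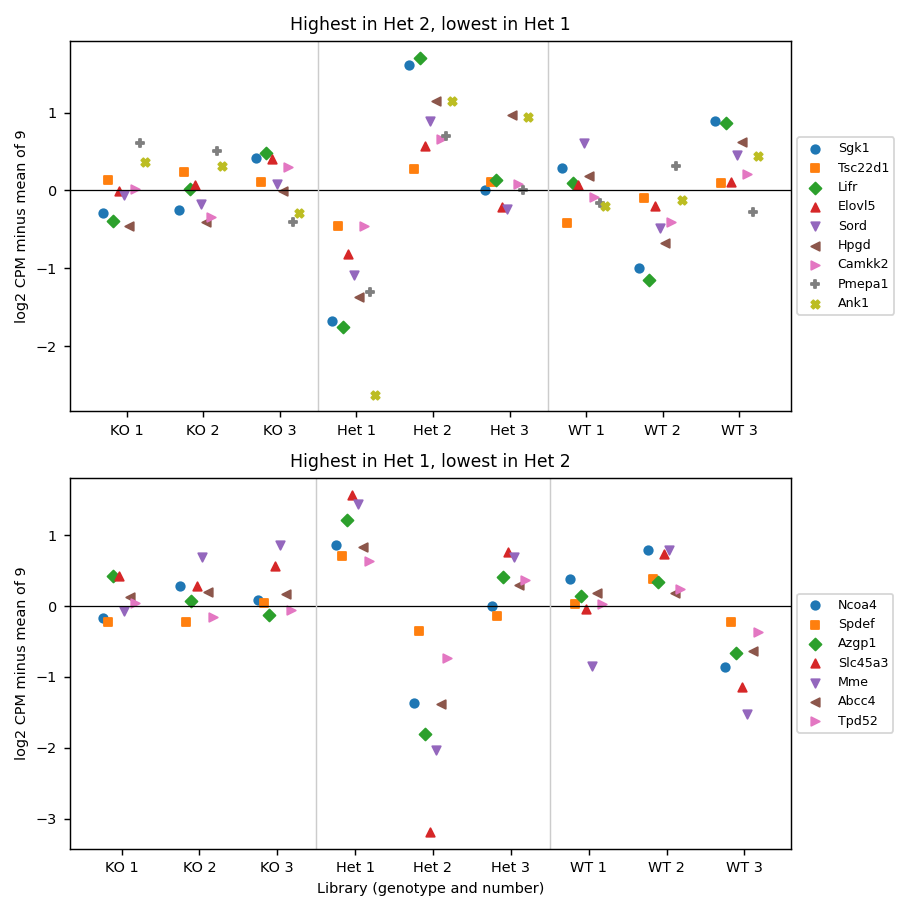
Log2 CPM less the gene's mean over the 9 libraries, for the 9 genes highest in Het 2 and lowest in Het 1 (one panel) and of the 7 genes highest in Het 1 and lowest in Het 2 (other panel), in every library in the order KO, Het and WT. Ank1 shows the widest spread among the 9 genes and Slc45a3 among the 7.

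The Sbp-rich and Sbp-poor libraries were compared by range only, because the split uses a measured value. Slc45a3 and Mme were higher in every Sbp-rich library, at 161 to 391 CPM against 14.3 to 128 CPM in the Sbp-poor ones for Slc45a3, and at 213 to 609 CPM against 54.6 to 125 CPM for Mme. Sord and Pdia5 were lower in every Sbp-rich library, at 138 to 312 CPM against 403 to 542 CPM in the Sbp-poor ones for Sord, and at 18.8 to 27.8 CPM against 31.3 to 38.5 CPM for Pdia5. Those are 2 of 35 genes in each direction, against 3.93% of all genes higher and 2.1% lower. Among the Sbp-poor libraries, Het 2 was lowest for Slc45a3 and Mme and highest for Sord, and WT 3 was highest for Pdia5. The other 31 genes overlapped.

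Some of these 31 overlapped over only part of their range. Uap1 was at 41.8 to 52.9 CPM in Sbp-rich and 52.3 to 64.3 CPM in Sbp-poor libraries. Sgk1 was at 242 to 1031 CPM in Sbp-rich and 941 to 2354 CPM in Sbp-poor libraries, and Lifr at 14.3 to 68.1 CPM and 51.9 to 159 CPM. On the other side, Azgp1 was at 282 to 711 CPM in Sbp-rich and 88.0 to 339 CPM in Sbp-poor libraries, and Abcc4 at 31.3 to 51.1 CPM and 10.9 to 32.6 CPM. Fkbp5 (135 to 337 CPM in Sbp-rich and 80.2 to 238 CPM in Sbp-poor libraries) and Tmprss2 (157 to 357 CPM and 159 to 448.2 CPM) overlapped widely. Of the genes with ranges apart between genotypes, only Pdia5 also had ranges apart between the Sbp groups. Overlapping ranges do not show that a gene is independent of Sbp. Every KO library was Sbp-rich, so for KO against WT this comparison cannot part genotype from Sbp.

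**Figure D5:**
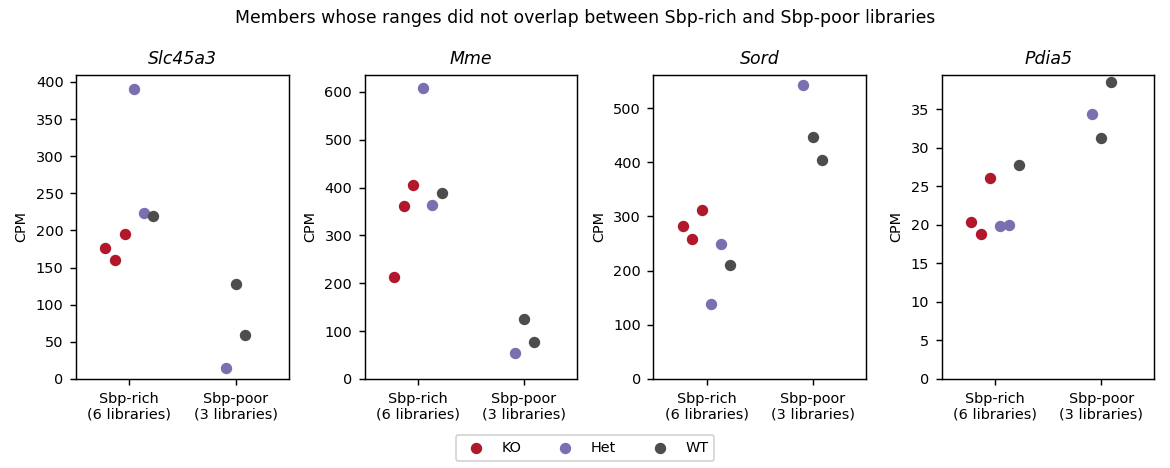
CPM of Slc45a3, Mme, Sord and Pdia5 in the 6 Sbp-rich and the 3 Sbp-poor libraries, with each point a library coloured by genotype. Slc45a3 and Mme lie higher and Sord and Pdia5 lower in the Sbp-rich libraries, with no overlap.

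Of 68 other androgen-response genes, 66 were tested. None was called in any contrast by edgeR over all 9 libraries with no covariate. Their median log2 fold change was -0.02 in KO against WT, 0.13 in Het against WT and -0.15 in KO against Het. Those at an unadjusted p under 0.05 were 3 higher and 3 lower in KO against WT, or 4.55% each, against 2.2% and 1.37% of all genes. In Het against WT they were 7 higher (10.6%, against 3.43%) and 4 lower (6.06%, against 5.61%), and in KO against Het 2 higher (3.03%, against 4.42%) and 6 lower (9.09%, against 1.81%). For KO against WT the smallest p belonged to the chaperone gene Dnajb9, at 73.2, 75.4 and 93.7 CPM in KO, 85.8, 149 and 102 CPM in Het and 152, 145 and 125 CPM in WT libraries (log2 fold change -0.80, SE 0.21, edgeR adjusted p = 0.9996). Plpp1 (0.91, SE 0.32) and Srp19 (-0.41, SE 0.15) followed. For Het against WT it was the BMP receptor gene Bmpr1b, at 107, 148 and 182 CPM in KO, 329, 184 and 219 CPM in Het and 76.3, 114 and 87.1 CPM in WT libraries (log2 fold change 1.40, SE 0.27, edgeR adjusted p = 0.392). DESeq2, and voom with quality weights, called Bmpr1b, and so did edgeR without Het 1. Zmiz1, a transcriptional coregulator (0.42, SE 0.13), and Tmem50a (0.46, SE 0.15) came next. For KO against Het it was Aldh1a3, a retinaldehyde dehydrogenase, at 7.08, 5.75 and 5.13 CPM in KO, 2.16, 2.16 and 1.16 CPM in Het and 2.72, 4.13 and 5.18 CPM in WT libraries (log2 fold change 1.71, SE 0.44, edgeR adjusted p = 0.64). DESeq2 (adjusted p = 0.0246) and voom with quality weights (adjusted p = 0.0474) called Aldh1a3. Adamts1 (1.31, SE 0.45) and Cdk6 (-0.68, SE 0.24) followed, all on the log2 scale.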

How the data were processed

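The authors deposited raw read counts per gene, whole numbers with Ensembl identifiers and symbols, and FPKM values, which divide counts by gene length and library total, for each library. The submitters' processing notes name GRCm38 (mm10). Aligner, counter and strandedness remain not given in the sources used here. Genotypes come from the library names, and replicate numbers follow accession order and pair nothing. No label says that libraries are separate animals, so p-values cover only spread between samples, possibly technical. That spread exceeded counting noise, with a lowest chi-square per degree of freedom of 40 between any 2 libraries. Counts were tested in 1 edgeR 4.0.16 model (R 4.3.3; TMM, filterByExpr, robust quasi-likelihood) over all 9 libraries, adjusted over 16836 genes, and called at an adjusted p under 0.05. SE is the fold change over the root of F. DESeq2 1.42.0 and limma 3.58.1 were alternatives. The fit was tested on simulated data with the same fixed spread for every gene, which does not measure its power in these libraries. The genes, lists and roles were chosen with earlier results of these data known. Named genes are the 4 with the smallest p per direction, and 3 per other list. Sbp-poor means under 100 CPM. RefSeq promoters were matched by symbol, and 9 genes had none. Some results that the naming rule selects are not reported here.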

Additional observations from a re-analysis of the deposited data

How the results depend on the processing

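In the main fit, edgeR with TMM and filterByExpr over all 9 libraries with no covariate, no gene was called in any contrast. For Het against WT, the number of genes called was 205 with DESeq2, 793 with limma voom with quality weights, 274 adjusted for the seminal vesicle score and 1 without the Sbp-poor libraries, and it ran from 0 to 258 when a library was left out, 258 without Het 1. For KO against Het the numbers were 2 with no low-count filter, 169 with DESeq2, 319 with voom and quality weights, 54 with the seminal vesicle score and 1 without the Sbp-poor libraries, with 0 to 18 on leaving out a library, 18 without Het 1. For KO against WT they were 14 with DESeq2, 1 with only the 2 genotypes compared, and 0 to 1 on leaving out a library. Of the 35 genes, Het against WT called 1 with DESeq2, 2 with voom and quality weights and 2 with the seminal vesicle score, and KO against Het called 1 with DESeq2 and 1 with voom and quality weights. The median log2 fold change of the 35 for Het against WT was -0.047 with limma voom, -0.0053 with the Sbp covariate, -0.014 with the luminal score, and -0.041 to 0.25 on leaving out a library; for KO against Het it was 0.098 with limma voom, -0.48 with the seminal vesicle score, and -0.22 to -0.02 on leaving out a library.

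Directions turned for these log2 fold changes. For Het against WT, Ell2 was -0.19 without Het 2 and up to 0.77 with another library left out, and Srd5a2 was 0.11 with the seminal vesicle score. For KO against Het, Adamts1 was -0.035 and Pdk4 -0.19 with the muscle score, Dusp1 was 0.72 without Het 3 and down to -1.45 with another library left out, and Srd5a1 was 0.048 without the Sbp-poor libraries and ran from -0.83 to 0.039 on leaving out a library, 0.039 without Het 2. For KO against WT, Fkbp5 was -0.0086 with the muscle score, and Inpp4b was -0.73 with the Sbp covariate and -0.021 with the luminal score. Mt1 was 0.080 with the seminal vesicle and 0.026 with the muscle score, Tmprss2 was 0.057 and 0.16 with the same scores, and Srd5a3 was 0.072 with the Sbp covariate, 0.017 with the luminal score and 0.18 without the Sbp-poor libraries. The cause was not tested. No paired analysis was possible because replicate numbers follow accession order and the labels give no shared animal or litter.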

Other observations

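Genes that rise in the rodent prostate after castration were examined as 6 genes, none called by edgeR in the main fit. For KO against Het, 3 of the 6 had a positive and 3 a negative log2 fold change, and for KO against WT 5 and 1. At an unadjusted edgeR p under 0.05, 2 were higher in KO against WT (33.3%, against 2.2% of all genes). In KO against Het 3 were higher (50%, against 4.42%). Igfbp3, which binds insulin-like growth factors, was at 58.1, 52.4 and 28.2 CPM in KO, 10.2, 15.4 and 13.1 CPM in Het and 8.32, 24.1 and 19.1 CPM in WT libraries, above every other library in all 3 KO libraries (log2 fold change 1.43, SE 0.40, edgeR adjusted p = 0.9996 for KO against WT, and log2 fold change 1.84, SE 0.40, edgeR adjusted p = 0.611 for KO against Het). Igfbp5, of the same family, was at 396, 469.7 and 214 CPM in KO, 177, 130.3 and 78.3 CPM in Het and 165, 211 and 181 CPM in WT libraries (log2 fold change 0.95, SE 0.33, edgeR adjusted p = 0.9996 for KO against WT, and log2 fold change 1.49, SE 0.34, edgeR adjusted p = 0.64 for KO against Het). Both were called by DESeq2 for KO against Het, at adjusted p = 0.00611 and 0.00927. Mgp, the matrix Gla protein, had a log2 fold change of 0.52 (SE 0.34) for KO against WT, -0.78 (SE 0.34) for Het against WT and 1.30 (SE 0.35) for KO against Het. Clu, the classical castration-induced gene, was at 1304, 1286 and 1609 CPM in KO, 203, 4247 and 1905 CPM in Het and 902, 426 and 2489 CPM in WT libraries, highest in Het 2 and lowest in Het 1. With Clu, Gstm1 and Tgfb1 made up the 3 that were lower for KO against Het. Gstm1 averaged 584 CPM in KO and 834 CPM in Het libraries, and Tgfb1 14.8 and 17.5 CPM. Among fibroblast genes of the stromal list, Col1a1 was at 213, 169.5 and 197 CPM in KO, 51.9, 153 and 106 CPM in Het and 76.4, 190.1 and 152 CPM in WT libraries, and Col3a1 at 271, 276 and 246 CPM in KO, 82.6, 158 and 167 CPM in Het and 126, 267 and 201 CPM in WT libraries. For KO against Het the 12 stromal genes had a median log2 fold change of 0.79, against 0.02 over all genes. Of these 12, 5 had ranges apart and higher in KO, as did 7.8% of all genes. The 7 endothelial genes had a median of 1.62, with all 7 above 0, as were 8760 of all 16836 genes. Summed stromal genes, most of that sum being smooth muscle genes, were at 6395, 5073 and 4717 CPM in KO, 1468, 7330 and 6766 CPM in Het and 3250, 5547 and 6342 CPM in WT libraries, and summed skeletal muscle genes were highest in KO 2, at 5894 CPM. Their part in these values was not tested.

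Of 12 glucocorticoid-response genes none was called by edgeR in the main fit either. For Het against WT, 6 of the 12 had a positive and 6 a negative log2 fold change. Higher means in Het than in WT libraries were found for Tsc22d3 (109 against 76.9 CPM), Klf9 (49.3 against 36.4 CPM) and Errfi1 (44.1 against 33.7 CPM). Per1, a clock gene, was at 40.7, 42.7 and 39.6 CPM in KO, 45.6, 36.9 and 32.2 CPM in Het and 61.4, 55.4 and 46.2 CPM in WT libraries. It was lower in every KO library than in any WT library, as were 6.04% of all genes (log2 fold change -0.41, SE 0.17, edgeR adjusted p = 0.9996 for KO against WT, log2 fold change -0.51, SE 0.17, edgeR adjusted p = 0.442 for Het against WT). Cebpd had a log2 fold change of -0.41 (SE 0.31) for KO against WT and -0.68 (SE 0.31) for Het against WT. Ddit4 was at -0.62 (SE 0.28) for Het against WT and 0.45 (SE 0.28) for KO against Het. Mt1, Pdk4 and Dusp1 had standard errors of 0.44 or more in the contrasts that name them.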
